A study of Mus musculus with 24 samples.

Results

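The early night step of excision repair in mouse kidney was examined by setting the libraries of zeitgeber time (ZT, hours after lights on) 16 against those of ZT12. Its members are 4 of the 24 libraries of the series, 2 kidney libraries labelled ZT16 and 2 labelled ZT12, chosen by tissue and time alone. The assay, XR-seq, sequences the short single-stranded pieces excised from DNA around a lesion by nucleotide excision repair, so a read marks a place where damage was being removed. All mice were wild-type C57BL/6J females (strain C57BL/6 in the sample labels), 6 months old, housed with 12 h of light followed by 12 h of darkness. Every group received 10 mg/kg of cisplatin, a drug that forms adducts and crosslinks on DNA, by intraperitoneal injection and was sacrificed 2 h later, so no group was without the drug. At ZT16 the lights had been off for 4 h, and ZT12 is the time of lights off. The other groups used are kidney at ZT0, ZT4, ZT8 and ZT20 and liver at the same 6 times, with 2 libraries each and the same genotype, age and drug. Whether the 2 libraries of a time stem from different mice is not stated, so p-values measure the spread between libraries, which may be in part technical. Whole tissue was used, and a change in the mix of cells and a change in repair within cells cannot be told apart.

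Nucleotide excision repair acts in several ways. Across the genome, adducts are found by damage sensors, whereas on the strand that RNA polymerase reads, the stalled polymerase itself calls in the repair factors. Reads on that transcribed strand (TS) of a gene therefore follow how much the gene is being transcribed, and reads on the non-transcribed strand (NTS) much less so. The circadian clock is a loop in which BMAL1 (made from Arntl), with CLOCK or its paralogue NPAS2, binds E-boxes and switches on its own repressors, the Per and Cry genes and the REV-ERB genes Nr1d1 and Nr1d2. REV-ERB proteins in turn repress Arntl and Npas2 through ROR elements, and Dbp, Tef and Hlf act on D-boxes.

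TS reads numbered 11707010 and 17176601 in the ZT16 kidney libraries and 24236776 and 16513334 in the ZT12 kidney libraries. NTS reads numbered between 1752018 and 3948748 in these 4 libraries. Most lists of tissue genes given here went with the tissue label, and that of podocyte markers did not. Summed over the list, 27 proximal tubule genes held 1870 to 2064 CPM (TS reads scaled to the size of the library) in the 4 kidney libraries and 1130 to 1188 CPM in the liver libraries of the same times. The 30 genes of the loop, distal tubule and collecting duct held 2080 to 2183 CPM in kidney and 983 to 1075 CPM in liver. The 20 hepatocyte markers held 192 to 210 CPM in kidney and 874 to 1004 CPM in liver. The 9 podocyte markers went the other way, with 356 to 389 CPM in kidney and 654 to 681 CPM in liver.

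Of the 22 clock list members reported here, 6 passed the test at this step. TS repair of Npas2 rose 2.34-fold and that of Arntl 2.4-fold at ZT16 over ZT12, the largest rises among the genes called, that of Clock rose less, and that of Dbp, Ciart and Nr1d1 fell. Over all genes, 109 entries were higher at ZT16, which is 0.568% of the 19207 tested, and 14 were lower, which is 0.0729% (edgeR quasi-likelihood test with a replicate block, Benjamini-Hochberg adjusted p under 0.05). The 109 entries carry 107 symbols, since Prom1 and Pvt1 each have 2 entries. An unadjusted p under 0.05 was found for 2862 genes. The median log2 change was 0.38 among the entries that rose, -0.72 among those that fell and -0.01 over all genes tested. Both ZT16 libraries lay above both ZT12 libraries in 108 of the 109 and below them in 14 of the 14. Over all genes tested this was so in 4098 and in 4122.

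**Figure D1:**
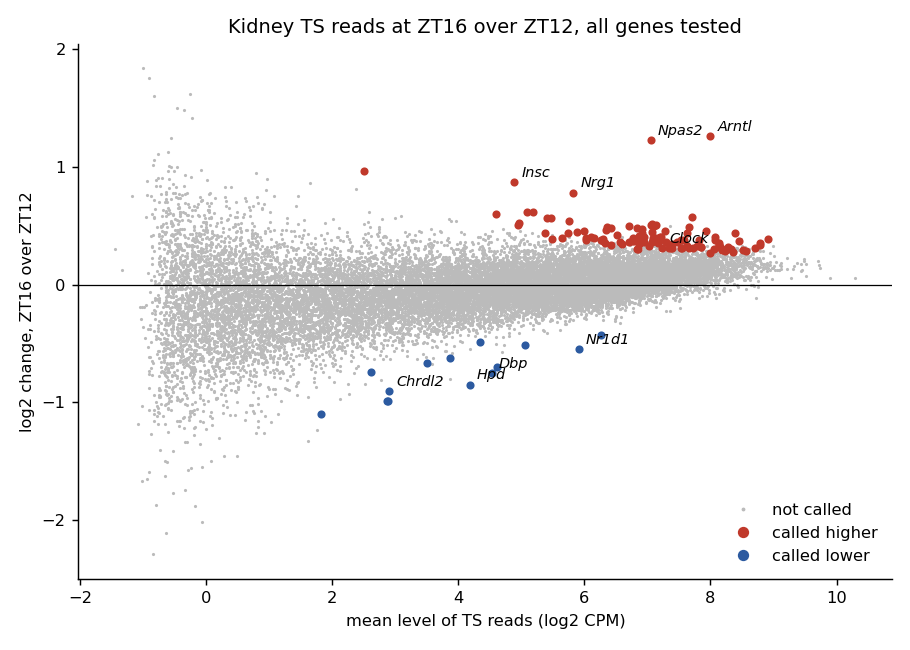
Log2 change of kidney TS reads at ZT16 over ZT12 (vertical axis) against the mean level in log2 CPM (horizontal axis) for the 19207 genes tested. Grey points were not called, red points (109) were called higher and blue points (14) were called lower, with Arntl and Npas2 standing above all other called genes.

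How many genes are called depends on single libraries, and the calls of Npas2 and Arntl do not. Without a block for the replicate number, 2 genes were higher and 0 were lower, with 1309 genes at an unadjusted p under 0.05, and the 2 were Npas2 and Arntl. Leaving out ZT16 replicate 1 left 4 higher and 0 lower, leaving out ZT16 replicate 2 left 2 and 0, and leaving out ZT12 replicate 2 left 2 and 2. Without either ZT8 library there were 27 and 5. Without ZT20 replicate 1 there were 11 and 2, and without ZT20 replicate 2 there were 8 and 1. Leaving out a ZT0 library gave more calls, 788 and 116 without replicate 1 and 713 and 119 without replicate 2. With the total of TS reads as library size in place of TMM factors, 18 were higher and 14 lower, so that 56.2% of calls were higher in place of 88.6%, while the median over all genes moved by -0.075. Of 22 named genes that passed the test, Npas2 and Arntl alone also passed it in each of the 22 alternative settings, and no named gene that passed changed its sign in any of them.

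The promoters of the 4 clock genes with the largest changes are given here, because the loop that joins these genes runs through short sites in them. Each is the 300 bases from RefSeq (build GRCm38.p6), read 5′ to 3′ on the strand of the gene, with 250 bases before the first transcribed base. Capitals mark an exact match to a clock motif, and where there are no capitals none of the searched letters was found in this window. Sites that differ from these letters, and sites outside the window, were not searched. A promoter without capitals may therefore still hold such a site. The start of each RefSeq promoter's gene is also the start of the deposited entry. The window of Npas2 is chr1:39194022-39194321 on the plus strand, that of Arntl chr7:113207215-113207514 on the plus strand, that of Dbp chr7:45704997-45705296 on the plus strand and that of Ciart chr3:95882179-95882478 on the minus strand.
Npas2: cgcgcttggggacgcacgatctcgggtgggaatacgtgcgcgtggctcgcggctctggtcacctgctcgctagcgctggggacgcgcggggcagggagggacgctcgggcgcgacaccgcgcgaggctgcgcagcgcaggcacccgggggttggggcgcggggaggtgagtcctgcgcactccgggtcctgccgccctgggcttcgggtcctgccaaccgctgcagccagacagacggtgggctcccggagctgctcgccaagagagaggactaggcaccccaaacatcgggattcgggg
Arntl: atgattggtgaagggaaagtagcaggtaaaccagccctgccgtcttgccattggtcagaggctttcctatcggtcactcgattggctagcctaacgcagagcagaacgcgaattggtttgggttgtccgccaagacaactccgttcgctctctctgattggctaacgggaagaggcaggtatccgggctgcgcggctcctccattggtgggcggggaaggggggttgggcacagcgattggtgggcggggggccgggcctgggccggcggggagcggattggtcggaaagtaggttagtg
Dbp: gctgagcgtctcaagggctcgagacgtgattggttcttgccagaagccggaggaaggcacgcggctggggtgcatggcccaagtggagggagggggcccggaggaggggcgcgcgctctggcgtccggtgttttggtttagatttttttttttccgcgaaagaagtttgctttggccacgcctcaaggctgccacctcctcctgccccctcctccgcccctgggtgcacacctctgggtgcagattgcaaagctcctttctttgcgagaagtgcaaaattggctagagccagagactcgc
Ciart: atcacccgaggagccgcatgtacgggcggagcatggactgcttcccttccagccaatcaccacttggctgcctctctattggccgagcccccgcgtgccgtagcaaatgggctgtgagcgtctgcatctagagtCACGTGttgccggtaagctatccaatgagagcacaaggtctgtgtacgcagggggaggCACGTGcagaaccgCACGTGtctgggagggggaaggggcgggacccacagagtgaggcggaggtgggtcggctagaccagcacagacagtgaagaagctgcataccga

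The letters searched, on both strands, were the E-box CACGTG, the E′-box CACGTT, the D-boxes TTATGTAA and TTACGTAA, and the ROR elements TAGGTCA and TGGGTCA. None of these overlapped in the 4 promoters. Ciart held 3 matches, all to the E-box, beginning 116, 58 and 44 bases before the start site. Of the 32851 promoters of this length in the RefSeq table, 7.15% held the E-box, 4.68% the E′-box, 0.938% and 0.119% the D-boxes, and 2.61% and 3.98% the ROR elements. Among genes tested here, 14285 had a promoter in that table and 9.19% of these held the E-box. Of the entries that rose, 79 had a promoter, and 10 of them (12.7%) held the E-box. Of the entries that fell, 10 had one, and 2 of them held the E-box. No D-box was found in either set, and the ROR elements TAGGTCA and TGGGTCA were found in 3 and 1 of the promoters of entries that rose and in 0 of those of entries that fell.

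Npas2 encodes the paralogue of CLOCK. It lies on chromosome 1 from 39194272 to 39363240 (mm10, plus strand, 169 kb), and no other entry overlaps it. Its TS reads stood at 69.4 and 91.8 CPM at ZT16, against 35.9 and 33.3 CPM at ZT12. Both ZT16 libraries were higher than both ZT12 libraries. The log2 change was 1.23 ± 0.11 (SE, n = 2 libraries each, edgeR adjusted p = 2.27e-05), a 2.34-fold rise, and it lay between 0.98 and 1.43 when any 1 kidney library was left out. From ZT0 on, the 2 libraries of each time had 275 and 245, 131 and 127, 35.6 and 36.4, 35.9 and 33.3, 69.4 and 91.8, and 264 and 259 CPM. ZT12 therefore did not stand apart from ZT8, and ZT16 stood between that trough and the level of ZT20.

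Arntl encodes BMAL1. It lies on chromosome 7 from 113207465 to 113314126 (mm10, plus strand, 107 kb), and no other entry overlaps it. Its TS reads stood at 258 and 263 CPM at ZT16, against 133.8 and 85.9 CPM at ZT12. The ZT16 libraries were close to each other, and both were higher than both ZT12 libraries, which differed from each other more. The log2 change was 1.26 ± 0.12 (SE, edgeR adjusted p = 4.53e-05), a 2.4-fold rise, and without any 1 kidney library it lay between 1.02 and 1.54. At ZT8 its libraries held 107 and 79.96 CPM, which overlapped those of ZT12, and at ZT20 they held 404 and 408 CPM. The rise of Arntl was thus under way at ZT16 and its highest values were those of ZT20.

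Clock had 176.0 and 161.7 CPM at ZT16, against 144.3 and 128.0 CPM at ZT12. Both ZT16 libraries were higher, by a log2 change of 0.31 ± 0.07 (SE, edgeR adjusted p = 0.0424), a call that is lost without the replicate block (adjusted p = 0.468). The 263 kb entry of Mir1191 contains Clock on the same strand, so its own call (log2 change 0.31) is not a separate result. The list of clock activators and genes of their phase has 6 members reported here, of which these 3 rose and 0 fell. The other 3 did not pass the test. Cry1, a repressor whose phase is close to that of the activators, had a log2 change of 0.16. Rora, which activates through ROR elements, had 0.05, and Nfil3, a repressor at D-boxes, had 0.12. The median of the list was 0.23, beside -0.01 over all genes. All 6 values were above 0, but with the total of TS reads as library size 5 of 6 were (Rora was at -0.03), and with the length trend removed also 5.

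Among the list of clock repressors and genes with E-boxes or D-boxes, 3 of 16 fell and 0 rose. Dbp, which activates at D-boxes and is a direct target of CLOCK and BMAL1, had 21.3 and 18.5 CPM at ZT16, against 31.6 and 35.1 CPM at ZT12. Both ZT16 libraries were lower, with a log2 change of -0.75 ± 0.11 (SE, edgeR adjusted p = 0.00786). Ciart, which encodes a repressor of CLOCK and BMAL1, had 15.3 and 15.1 CPM at ZT16, against 21.6 and 24.9 CPM at ZT12. The groups did not overlap, and the log2 change was -0.62 ± 0.13 (SE, edgeR adjusted p = 0.0363). Nr1d1, which encodes REV-ERBα, had 48.4 and 39.9 CPM at ZT16, against 59.1 and 69.5 CPM at ZT12. Here too both ZT16 libraries were lower, with a log2 change of -0.55 ± 0.11 (SE, edgeR adjusted p = 0.0361). It was -0.31 without ZT12 replicate 2 and -0.78 without ZT12 replicate 1, with an edgeR adjusted p of 0.289 without ZT12 replicate 2, and it passed the test in 5 of the 12 fits that left out a kidney library. A gene on the opposite strand overlaps each of these 3 (Sphk2, C920021L13Rik and Thra). In the shared part the TS of the clock gene is the NTS of the other gene, so reads there may belong to either gene. If the counting did not keep strands apart at overlaps, reads on the TS of the other gene may be included too. All 3 calls are lost without the replicate block, with adjusted p-values of 0.144, 0.453 and 0.432.

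The other 13 members of that list did not pass the test. Hif3a (-0.51), Tef (-0.33), Bhlhe41 (-0.30), Nr1d2 (-0.23), Per3 (-0.23) and Tspan4 (-0.23) had the lowest log2 changes of these. Tef is a D-box activator, Bhlhe41 an E-box repressor, Nr1d2 the second REV-ERB gene and Per3 a Period gene. Adjusted p-values of these 6 ran from 0.0715 for Hif3a to 0.217 for Bhlhe41. Per1 (-0.01), Per2 (0.03), Cry2 (-0.04), Hlf (0.02), Usp2 (-0.03), Bhlhe40 (-0.04) and Wee1 (-0.11) lay closer to 0. Per2 had 292.6 and 276.0 CPM at ZT16, against 270.5 and 284.6 CPM at ZT12, and its groups overlapped. The median of the 16 was -0.23, with 14 values below 0. That count was 16 with the total of TS reads as library size and 11 with the length trend removed.

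**Figure D2:**
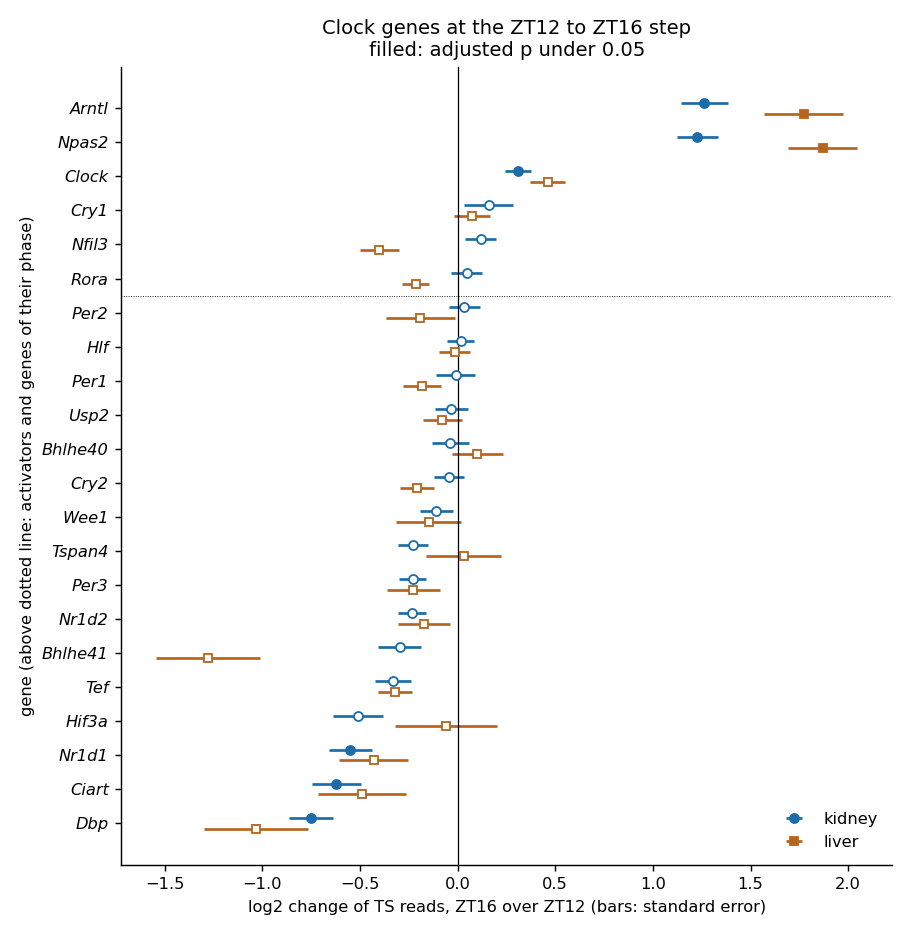
Log2 change of TS reads at ZT16 over ZT12 (horizontal axis) with standard errors for 22 members of the clock lists, kidney as blue circles and liver as brown squares, from 2 libraries a time. Filled symbols passed the test within their tissue, 6 genes in kidney and 2 in liver, and Arntl and Npas2 are the genes filled in both.

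**Figure D3:**
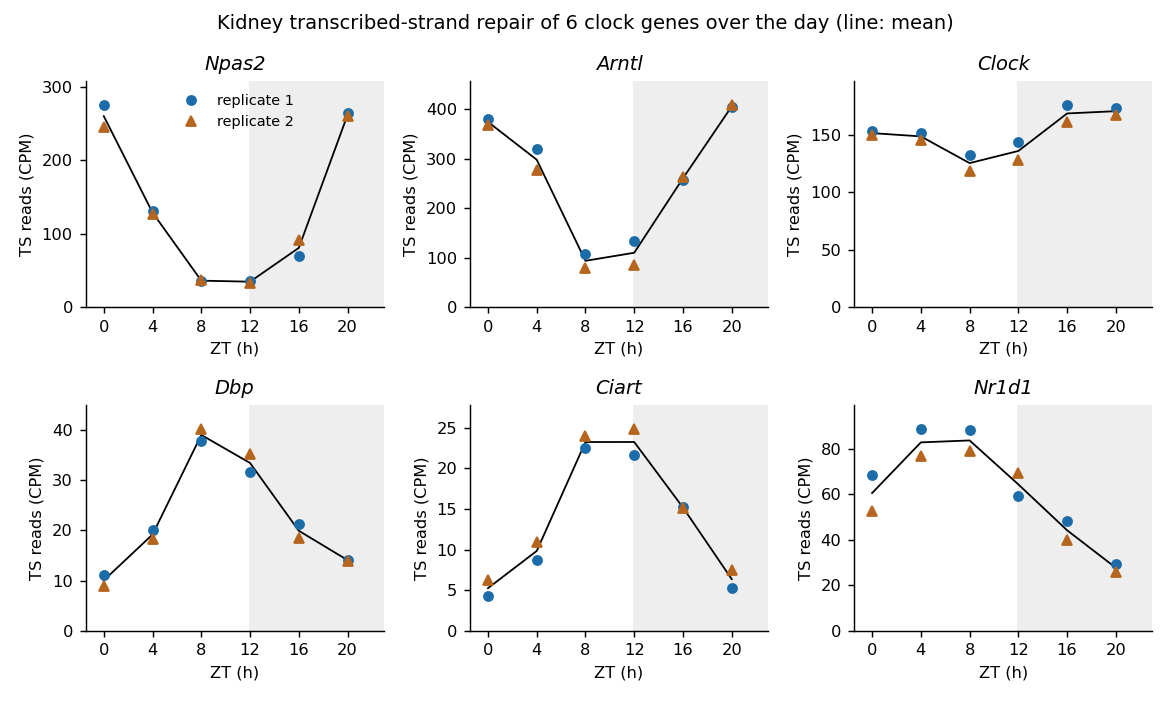
TS reads in CPM (vertical axis, from 0) of 6 clock genes in each kidney library over the 6 times (horizontal axis, ZT in hours), with circles and triangles for replicates 1 and 2, a line through the means and the dark hours shaded. Npas2 and Arntl leave their trough between ZT12 and ZT16, while Dbp, Ciart and Nr1d1 are on their way down.

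Outside the clock lists, the largest rises among called genes with at least 20 reads were those of Akr1c20, Insc, Nrg1, Wrb, Smyd5, Micalcl, Banp and Wdr8. Insc encodes an adaptor of spindle orientation. It had 35.1 and 39.0 CPM at ZT16, against 22.6 and 18.2 CPM at ZT12, and the groups did not overlap. Its log2 change was 0.87 ± 0.12 (SE, edgeR adjusted p = 0.00615). Nrg1 encodes neuregulin, a ligand of ErbB receptors, and had 68.3 and 86.6 CPM at ZT16, against 46.0 and 43.3 CPM at ZT12. Both ZT16 libraries were higher, with a log2 change of 0.78 ± 0.10 (SE, edgeR adjusted p = 0.00307). Insc and Nrg1 each passed the test in 10 of the 12 fits that left out a kidney library, and neither passed it without the block (adjusted p = 0.149 and 0.165). Akr1c20, an aldo-keto reductase gene, has 2 overlapping entries and close paralogues, so that its reads are uncertain. It had 7.78 and 7.01 CPM at ZT16, against 4.11 and 3.35 CPM at ZT12, a log2 change of 0.97. Wrb, whose product helps to insert tail-anchored proteins into membranes, had a log2 change of 0.62. Smyd5, a gene of the SET and MYND domain family, had 0.62, Micalcl 0.60, Banp, which encodes a nuclear DNA-binding protein, 0.58, and the WD repeat gene Wdr8 0.56. Without ZT12 replicate 2, Micalcl and Banp were both at 0.37 and neither passed the test (edgeR adjusted p = 0.318 and 0.264), and Micalcl passed it in 5 and Banp in 7 of those 12 fits. The chloride channel gene Cftr came next with 0.56.

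The largest falls outside the clock lists were those of E030018B13Rik, Upp2, E130012A19Rik, Chrdl2, Hpd, Casc5, Crispld2 and Gm15441. Hpd encodes an enzyme of tyrosine breakdown and had 17.0 and 9.72 CPM at ZT16, against 25.6 and 21.4 CPM at ZT12. Both ZT16 libraries were lower, with a log2 change of -0.85 ± 0.14 (SE, edgeR adjusted p = 0.018). Chrdl2, which encodes an antagonist of bone morphogenetic proteins, had 7.23 and 4.80 CPM at ZT16, against 12.8 and 9.50 CPM at ZT12. The groups did not overlap, and the log2 change was -0.90 ± 0.17 (SE, edgeR adjusted p = 0.0326). Upp2, a uridine phosphorylase gene with 2 overlapping entries, had 6.04 and 4.25 CPM at ZT16, against 14.1 and 6.99 CPM at ZT12, a log2 change of -0.99. The ZT12 libraries of Upp2 differed from each other more than the nearest libraries of the groups did. E130012A19Rik fell by 0.98 on the log2 scale, Casc5, which encodes a kinetochore scaffold, by 0.75 and Crispld2, a gene of a secreted protein, by 0.70. E030018B13Rik (-1.10) overlaps Klf13 and Gm15441 (-0.66) overlaps Txnip, each on the opposite strand. Without ZT12 replicate 1 the change of Crispld2 was -0.31 (edgeR adjusted p = 0.274), and without ZT16 replicate 2 that of E030018B13Rik was -0.66 (adjusted p = 0.654). Of the 12 fits that left out a kidney library, Crispld2 passed the test in 4 and E030018B13Rik in 2. The remaining called falls were Map3k6 (-0.51), BC049762 (-0.49) and Mthfd1l (-0.43). All of these calls are lost without the replicate block, with adjusted p-values for the 8 largest from 0.41 (E030018B13Rik) to 0.705 and 0.715 (Hpd and Upp2).

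None of the members of the other 18 lists passed the test on the TS. Over all genes tested 0.568% were called higher and 0.0729% lower, so lists of this size would hold few calls in any case. The values of the lists are given as a description. Of 31 nucleotide excision repair genes tested, 20 were above 0, with a median log2 change of 0.06 and a range from -0.54 (Pole) to 0.20 (Gtf2h2). Of 25 p53 targets 12 were above 0 (median -0.02), and of 26 genes for platinum transport or thiol defence 13 were above 0 (median 0.01). Genes of the proximal tubule had a median of -0.07 over 27 genes, and genes of the loop, distal tubule and collecting duct 0.01 over 30. Fasting and fatty acid oxidation genes had a median of -0.11, with 1 of 24 above 0, and fatty acid synthesis genes 0.08, with 12 of 19 above 0. Immediate early genes had a median of -0.10, glucocorticoid targets -0.09, heat shock and cold-inducible genes -0.07, cholesterol synthesis genes 0.05 and kidney injury genes 0.01.

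Markers of the other cell types that whole kidney holds, or could carry over, are given beside these lists, and their part in the results above was not tested. Of 16 endothelial markers 2 were above 0 (median -0.18), of 12 mesenchymal markers 1 (median -0.34), of 9 podocyte markers 1 (median -0.22), of 15 immune markers 5 (median -0.11), of 19 hepatocyte markers 5 (median -0.22) and of 13 adipocyte and adrenal markers 2 (median -0.49). Summed levels of endothelial markers were 396 and 424 CPM at ZT16, against 455 and 457 CPM at ZT12, and those of mesenchymal markers were 116 and 137 CPM at ZT16, against 149 and 146 CPM at ZT12. Podocyte markers summed to 356 and 359 CPM at ZT16, against 389 and 383 CPM at ZT12. Their sum was higher in the liver libraries of the same times (654 to 681 CPM), so it is not particular to kidney. Immune markers summed to 73.3 and 74.2 CPM at ZT16, against 71.6 and 80.2 CPM at ZT12. Adipocyte and adrenal markers summed to 35.7 and 39.9 CPM at ZT16, against 40.8 and 44.7 CPM at ZT12, and those of hepatocytes to 204 and 192 CPM at ZT16, against 208 and 210.5 CPM at ZT12. Both ZT16 libraries lay below both ZT12 libraries in every one of these lists except that of immune markers, where the groups overlapped. Such separation is common with 2 libraries against 2, and 4122 of the 19207 genes tested lay below in this way. The sums of fasting and fatty acid oxidation genes also lay below. Those of excision repair genes, p53 targets, platinum transport and thiol defence genes, fatty acid synthesis genes and cholesterol synthesis genes lay above without overlap. So did those of the loop, distal tubule and collecting duct, with 2183 and 2166 CPM at ZT16, against 2132 and 2080 CPM at ZT12. The sums of proximal tubule genes overlapped. No marker of these lists that has an entry was without TS reads in all 4 libraries.

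The genes that rose were long and well covered. Their entries had a median length of 86.6 kb, against 11.0 kb for those that fell and 20.9 kb for all genes tested, and a median level of 7.09 log2 CPM, against 4.03 for those that fell and 4.5 for all. Length also went with the change over all genes. The median log2 change of TS reads was -0.07 in genes under 5 kb, -0.05 from 5 to 10 kb, -0.04 from 10 to 20 kb, -0.01 from 20 to 50 kb, 0.05 from 50 to 100 kb, 0.10 from 100 to 200 kb and 0.05 over 200 kb. On the NTS the same classes lay between -0.03 and 0.03 and did not rise with length. Their medians fell from 0.03 under 5 kb to -0.03 from 50 to 100 kb. They were -0.02 from 100 to 200 kb and 0.01 over 200 kb. The trend on the TS is not particular to kidney. Liver TS medians at this step were -0.065 under 5 kb, 0.094 from 100 to 200 kb and 0.086 over 200 kb. The slope of log2 TS reads per 10-fold length, relative to the mean of the kidney libraries, was 0.11 and 0.01 in the ZT16 libraries, against 0.05 and -0.07 in the ZT12 libraries, higher at ZT16 within each replicate number. With this trend taken out of the fit, 263 genes were higher and 27 lower, 98 of the 109 and 13 of the 14 among them. The genes that rose then had a median length of 36.5 kb and those that fell 42.4 kb. Arntl (1.22) and Npas2 (1.18) kept log2 changes close to those above.

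**Figure D4:**
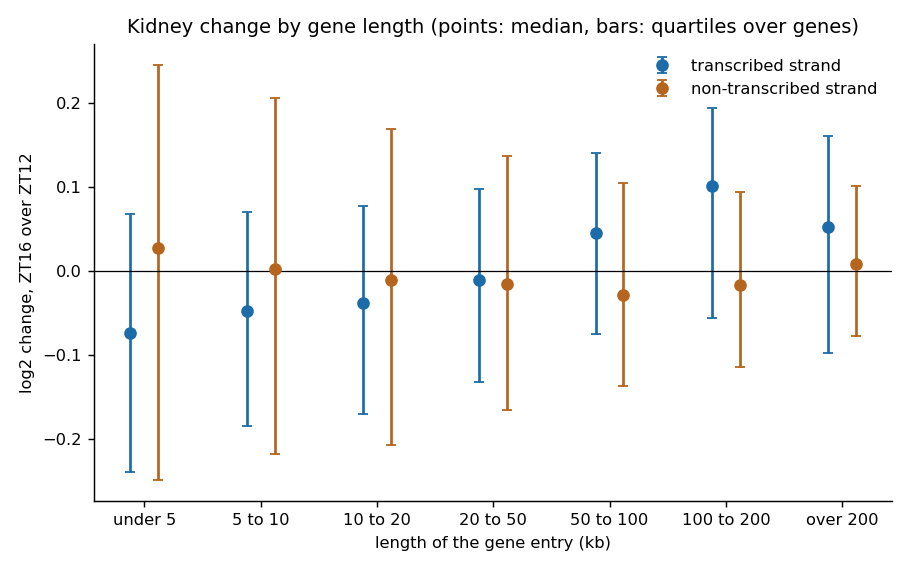
Log2 change at ZT16 over ZT12 (vertical axis) in 7 classes of gene length (horizontal axis, kb), as the median over genes with quartiles, for the transcribed strand (blue) and the non-transcribed strand (brown) of kidney. TS medians run from -0.07 under 5 kb to 0.10 at 100 to 200 kb, while NTS medians stay within 0.03 of 0.

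The share of reads on the transcribed strand was larger at ZT16. Of the reads on either strand of genes, 87.0% and 86.2% lay on the TS at ZT16, against 86.0% and 84.5% at ZT12, which is 86.6% ± 0.559 and 85.2% ± 1.09 (SD, n = 2 each). The share was higher at ZT16 in each replicate number, by 1.37 percentage points on average, and 2 libraries against 2 cannot give an exact 2-sided permutation p below 0.333. Kidney means were 84.4% at ZT8 and 87.25% at ZT20. In liver the mean share was also higher at ZT16, at 87.86% against 87.18% at ZT12. Among 4 classes of reads in the authors' tables of kidney reads drawn down to equal depth within a replicate number, the TS held 61.6% and 61.0% at ZT16, against 60.5% and 58.9% at ZT12. The NTS held 7.45% and 8.03% at ZT16, against 8.11% and 9.14% at ZT12. Intergenic regions held 15.4% and 15.3% at ZT16, against 16.0% and 16.7% at ZT12, and overlapping genes 15.6% and 15.7% at ZT16, against 15.5% and 15.3% at ZT12. The groups did not overlap in any of the 4 classes, and came closest in the NTS, where the higher ZT16 library lay just under the lower ZT12 library. The 4 shares are parts of the same total, so these are not separate results.

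NTS reads were tested in the same way, on other reads of the same libraries. At ZT16 263 genes were higher, which is 1.39% of the 18866 tested, and 18 were lower, which is 0.0954%. Of the 109 entries that rose on the TS, 63 had an NTS change above 0, and 1 was called higher, and over all genes tested on the NTS 48.5% were above 0. NTS changes of Npas2 and Arntl were 0.08 and 0.20 and did not pass the test. Of the 263 genes higher on the NTS, 126 (47.9%) overlap a gene on the opposite strand, whose TS this strand is, against 17.2% of all genes tested. Without the block 0 genes were called either way, and without ZT16 replicate 2 also 0. Without ZT16 replicate 1 there were 151 and 5, without ZT12 replicate 2 there were 60 and 5, and without a ZT0 library there were 430 and 435 higher and 52 lower.

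Per2 was among the genes whose NTS reads fell. It had 103.8 and 116.5 CPM of NTS reads at ZT16, against 154.7 and 172.2 CPM at ZT12, a log2 change of -0.55 ± 0.11 (SE, edgeR adjusted p = 0.00242). Slc12a3, the sodium chloride cotransporter of the distal tubule, had 122.8 and 108.2 CPM of NTS reads at ZT16, against 171.3 and 193.3 CPM at ZT12, a log2 change of -0.66 (edgeR adjusted p = 0.000993). In both genes the ZT16 libraries were lower without overlap, and TS changes (0.03 and -0.18) did not pass the test. The other large NTS falls were Tfap2c (-1.45), Gpc2 (-1.06), Mkrn1 (-0.94) and Gm13582 (-0.77), and the large NTS rises were Csf3 (1.09), Ifltd1 (0.95), 9630013K17Rik (0.81), Fam219aos (0.77) and Gm15708 (0.77). The last 3 of the rises lie opposite Cox10, Fam219a and Baiap2l1. Tfap2c rested on 8 and 7 NTS reads at ZT16, against 31 and 35 at ZT12.

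The ratio of TS to NTS reads within libraries was tested next. Its median log2 change over all genes was 0.15, and the values of single genes are to be read against that shift. The ratio was higher at ZT16 in 611 genes, which is 3.03% of the 20156 tested, and lower in 43, which is 0.213%. It rose for Npas2 (1.32, edgeR adjusted p = 2.86e-07) and Arntl (1.22, adjusted p = 5.91e-09) and fell for Dbp (-0.70, adjusted p = 0.0119) and Nr1d1 (-0.68, adjusted p = 0.0117). Per2 rose in ratio by 0.73 (adjusted p = 0.00293), with its TS level at 0.03. Clock (0.38) and Ciart (-0.42) did not pass the test. All of the 109 entries that rose on the TS had a ratio change above 0, and 60 were called, and of the 14 that fell 13 were below 0 and 3 were called. Over all genes 66.7% had a ratio change above 0. Since the ratio holds the same TS counts, this is no separate evidence for them.

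The largest ratio changes rested on few reads. Those that rose most were Defb36 (3.65), Akap3 (3.13), 1600023N17Rik (2.29), Twist1 (2.05) and Omp (1.81). Defb36 had 0 and 2 NTS reads at ZT16, against 13 and 17 at ZT12, and Twist1 had 3 and 4, against 17 and 21. Those that fell most were Ccr9 (-2.21), Chrne (-1.56), Samd11 (-1.37), B230206H07Rik (-1.06) and Fat2 (-1.03). Ccr9, a chemokine receptor gene, had 1 and 6 TS reads at ZT16, against 29 and 12 at ZT12. Of the 43 genes lower in ratio, 26 (60.5%) overlap an opposite gene, among them Chrne, Samd11 and B230206H07Rik, against 16.5% of all tested. Without the block 0 genes were called. The counts higher and lower were 4 and 0 without ZT16 replicate 2, 404 and 22 without ZT16 replicate 1, 2 and 0 without ZT12 replicate 2, and 51 and 11 without ZT12 replicate 1. They were 396 or 397 and 28 without a ZT8 library and 1388 or 1393 and 134 without a ZT0 library.

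ZT20 against ZT8 shares no library with the step, although it comes from the same fit with the same block and spread. There 3376 genes were higher at ZT20 (17.6%) and 1792 lower (9.33%). All 109 entries that rose at ZT16 over ZT12 were above 0 at ZT20 over ZT8, with a median log2 change of 0.57, and 107 of them were called higher. These are 98.2% of the step's rises and 3.17% of the genes higher at ZT20. Over all genes, 46.7% were above 0. That share is not matched for length or level, and the 109 were longer and better covered than the genes tested. The slope of log2 TS reads per 10-fold length was 0.12 and 0.03 in the ZT20 libraries, against -0.08 and -0.11 in the ZT8 libraries. The part of length and level in these counts was not tested. Of the 14 that fell, 13 were below 0 and 10 were called lower, which is 71.4% of the step's falls and 0.558% of the genes lower at ZT20. Npas2 (2.86), Arntl (2.14) and Insc (1.41) rose most among the genes named here, and Ciart (-1.83), Nr1d1 (-1.60) and Dbp (-1.48) fell most. Hpd (0.10), Upp2 (-0.15), Chrdl2 (-0.40) and Casc5 (-0.38) fell at the step and were not called at ZT20 over ZT8. Without the block 1504 and 374 genes were called. Leaving out a library of either time left between 881 and 1973 higher and between 152 and 875 lower, and without ZT0 replicate 1 there were 2719 lower.

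**Figure D5:**
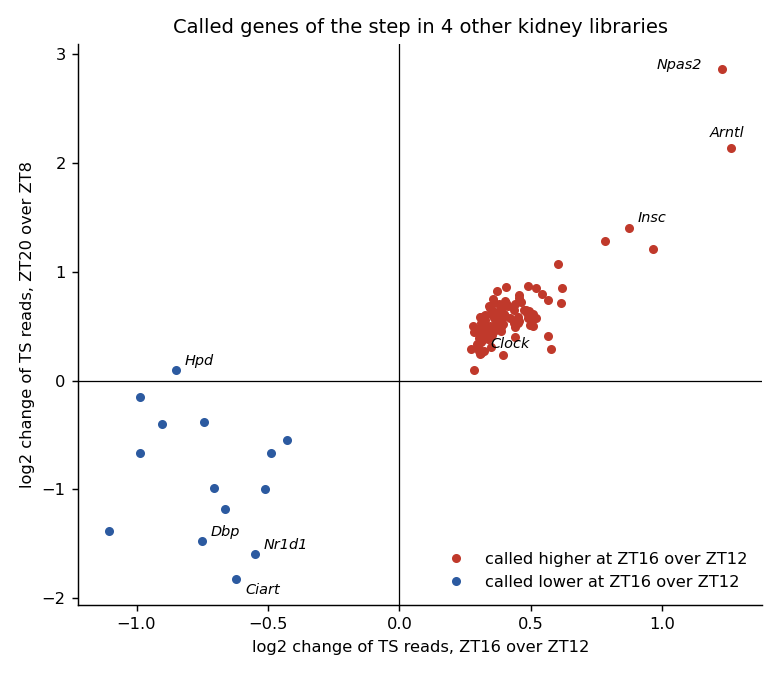
Log2 change of TS reads at ZT20 over ZT8 (vertical axis) against that at ZT16 over ZT12 (horizontal axis) for the 123 called kidney entries, red for those called higher at ZT16 over ZT12 and blue for those called lower. All red points lie above 0 on the vertical axis, and Hpd is the blue point above 0.

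Liver was tested at the same step to show where kidney differs. In liver 71 genes were higher at ZT16, which is 0.382% of the 18584 tested, and 7 were lower, which is 0.0377%. Npas2 had 58.8 and 41.8 CPM in liver at ZT16, against 13.4 and 13.9 CPM at ZT12, a log2 change of 1.87 (edgeR adjusted p = 0.00594), and Arntl had a log2 change of 1.77 (adjusted p = 0.00991). Of the kidney entries that rose, 99 of 109 were above 0 in liver and 16 were called, which is 14.7% of the kidney rises and 22.5% of the liver rises. Of the kidney entries that fell, 13 of 14 were below 0 in liver and 0 were called. Over all genes tested in liver, 50.2% were above 0. Insc, at 199.9 and 202.6 CPM in liver at ZT16, against 178.8 and 213.0 CPM at ZT12, had a liver log2 change of 0.05, and in kidney it rose by 0.87 as given above. Without the block 46 and 3 genes were called in liver. The counts were 0 and 0 without ZT12 replicate 1, at most 2 higher and 0 lower without either ZT16 library, 30 to 32 higher and 3 to 5 lower without a ZT4 or ZT8 library, 16 and 2 without a ZT20 library, and 859 or 865 higher and 399 or 404 lower without a ZT0 library.

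The difference between the tissues was tested as an interaction over all 24 libraries. At the step 0 genes rose more in kidney than in liver (0%) and 2 rose less (0.0102% of the 19625 tested), with an unadjusted p under 0.05 in 1358 genes. Those 2 were Smagp and Gatsl2, which rose in liver. Smagp, a gene of a small cell adhesion glycoprotein, had 89.8 and 85.2 CPM in kidney at ZT16, against 79.8 and 81.1 CPM at ZT12, and in liver 73.6 and 70.9 CPM at ZT16, against 32.6 and 34.5 CPM at ZT12. Its kidney change was 0.12 and its liver change 1.10. Gatsl2 had 154.7 and 138.5 CPM in kidney at ZT16, against 137.4 and 127.5 CPM at ZT12, and in liver 82.2 and 70.5 CPM at ZT16, against 44.8 and 38.1 CPM at ZT12. The differences for Npas2 (-0.66 ± 0.23, SE) and Arntl (-0.52) did not pass the test, nor did those for Insc (0.81), Dbp (0.27), Ciart (-0.15) and Nr1d1 (-0.14). Both calls are lost without the replicate block and without any 1 of kidney ZT12 replicate 2, either kidney ZT16 library, liver ZT12 replicate 1 or liver ZT16 replicate 1. One of them is lost without kidney ZT12 replicate 1 or liver ZT16 replicate 2. Without liver ZT12 replicate 2 there were 6 higher and 18 lower.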

How the data were processed

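The deposited gene tables give, per the file headers, a read count and an RPKM value per gene entry and time, with a separate table for every combination of tissue, strand and replicate number, and their counts are whole numbers. Coordinates are on mm10, per the submitters' processing notes. Aligner and counting tool: not given in the sources used here, and likewise whether counting kept strands apart at overlaps. Per the labels' protocols, oligomers were captured with antibodies against TFIIH and then against the lesion, where the extraction protocol names other lesions than cisplatin adducts and the design text names cisplatin. The deposited RPKM values were not used. The authors' drawn-down kidney count tables gave the shares by class and 1 alternative.

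Of 25239 entries, 24203 name 1 symbol (24109 matched RefSeq names) and were used, and the others, which were left out, hold 2.94% of kidney TS reads. The depth of a kidney library was 6334958 to 24236776 TS reads, and that of a liver library 9538537 to 21050661. Intervals and errors cover these libraries only.

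Counts were tested with edgeR 4.0.16 (glmQLFit, glmQLFTest, TMM, filterByExpr, limma 3.58.1, R 4.3.3) on all 12 kidney libraries, with 1 mean per time and the replicate number as block, and Benjamini-Hochberg adjustment over all genes at 0.05. The standard error is the log2 change divided by the square root of F. CPM are on the TMM scale of the counted strand. The strand ratio used 2 columns per library with the library as block, and the tissue difference all 24 libraries. Alternatives were no block, RLE factors, no filter, DESeq2 1.42.0, total reads as size, a loess length trend (span 0.5) as offset, the 4 libraries alone, genes without overlap, the drawn-down tables and leaving out each library of a fit in turn (for the tissue difference, the ZT16 and ZT12 libraries only). The length trend for ZT20 over ZT8 was chosen after seeing the data.

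The block follows the definition of the comparison. Over 12804 genes, differences between replicate 2 and replicate 1 in kidney correlated between times at 0.0782 to 0.589 (median 0.397, 15 pairs of times, 0.397 for ZT16 and ZT12), so the numbers do not pair every pair of times. In liver these correlations ran from -0.165 to 0.473, and the liver and tissue difference fits use the block too.

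On simulated kidney TS counts (19170 genes), 91% of 2-fold and 73% of 1.5-fold changes were recovered, with 10 unchanged genes among 174 calls. For the strand ratio (20146 genes) the recovered shares were 60% and 22%, and for the tissue difference (19606 genes) 68% and 21%. The simulation gave each gene the spread of its level, and a replicate effect that was the same at all times, as the block assumes. The real libraries do not meet this in full, so these rates may not hold for them.

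Named genes are the 10 largest rises and 10 largest falls of kidney TS reads that were called, averaged 20 or more reads and moved one way in both replicate numbers, all members of the clock lists (1 is not reported here and was left out of its list), up to 3 called members of each other list, and the 5 largest each way for NTS, ratio and tissue difference. Promoters are those of the 4 called clock genes with the largest changes. Others (Cftr, Prom1, Pvt1, Mir1191, Map3k6, BC049762, Mthfd1l, Pole, Gtf2h2) were named after their values were seen. The comparison, the lists and the rules were chosen with earlier results of these data known.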

Additional observations from a re-analysis of the deposited data

Results flagged for a closer look

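Smagp and Gatsl2 were the genes whose change at ZT16 over ZT12 differed between kidney and liver in the test of the difference itself (edgeR interaction over 24 libraries). The kidney change minus the liver change was -0.99 for Smagp (adjusted p = 0.0108) and -0.75 for Gatsl2 (adjusted p = 0.0243). Both lie on the side of a larger rise in liver, and the per-library levels are given above. Both calls are lost without the replicate block and depend on single libraries, as given above.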

How the results depend on the processing

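Of the 466 values that up to 22 alternatives gave for the 22 called genes named, 0 had the opposite sign. Counts of genes moved far more, and the cause was not tested. For kidney TS (109 higher, 14 lower) they were 2 and 0 without the replicate block, 103 and 12 with RLE factors, 200 and 37 without a filter, 243 and 2 with DESeq2, 18 and 14 with total reads as size, 263 and 27 with the length trend removed, 1172 and 405 in the 4 libraries alone with the replicate block, 9 and 1 in them without it, 71 and 7 in the 14307 genes without overlap and 92 and 9 in the drawn-down tables. Without 1 library they ranged from 2 to 788 and from 0 to 119. For NTS (263 and 18) they were 0 and 0 without the replicate block, 321 and 30 without a filter and 103 and 5 with DESeq2, and 0 to 435 and 0 to 52 without 1 library. For the ratio (611 and 43) they were 0 and 0 without the replicate block and 804 and 71 without a filter, and 2 to 1393 and 0 to 134 without 1 library. For liver TS (71 and 7) they were 46 and 3 without the replicate block, 117 and 14 without a filter and 270 and 52 with DESeq2, and 0 to 865 and 0 to 404 without 1 library. For ZT20 over ZT8 (3376 and 1792) they were 1504 and 374 without the replicate block, 2761 and 846 with DESeq2 and 3499 and 1240 with the length trend removed, and 881 to 3988 and 152 to 2719 without 1 library. For the tissue difference (0 and 2) they were 0 and 0 without the replicate block, and 0 to 6 and 0 to 18 without 1 of the 8 ZT16 and ZT12 libraries, the other 16 being left in throughout. The TS share of TS and NTS reads together was larger at ZT16 by 1.43 percentage points in the drawn-down tables (1.04 to 1.81 without 1 replicate number) and by 1.37 in the full tables. Fits that leave a time with 1 library assume that it varies like the other times.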
